A study of Mus musculus with 6 samples.

Results

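Desmosomes are the adhesive plaques that hold the keratinocytes of the epidermis together, and 10 genes of their parts were described here across cultured mouse keratinocytes that differed in Ovol1 and Ovol2. The genes were taken by name: the desmosomal cadherins Dsg2, Dsg3, Dsc2 and Dsc3, the membrane protein Perp, the plaque proteins Jup, Pkp1, Pkp2 and Pkp3, and the keratin linker Dsp. All 10 were measured, each by 1 probe set annotated to that gene alone, among 19938 named genes in all. RNA was hybridised to 6 Affymetrix arrays in 3 groups of 2. The cells came from the skin of C57BL/6 embryos at E18.5, late gestation, all labelled female, and were cultured for 2 to 5 days without calcium, with 2 mice on each array. Control mice carried Ovol2flox/+ together with either Ovol1+/- or K14-Cre, so the controls themselves carried altered alleles. Mice labelled Ovol1 KO were Ovol1-/-. The Ovol1/2 DKO mice were Ovol1-/- and Ovol2flox/- with K14-Cre, which removes the floxed Ovol2 allele in cells that use the keratin 14 promoter. Arrays within a group are labelled as biological replicates, and having only 2 of them per group limits the precision: the smallest two-sided p of an exact permutation test of 2 arrays against 2 is 0.333, and p-values here come from a limma fit across all genes.

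In a desmosome, desmogleins and desmocollins of neighbouring cells bind each other outside the cell in a calcium-dependent way. Inside, plakoglobin (Jup) and the plakophilins hold the cadherin tails and pass the link to desmoplakin (Dsp), which binds keratin filaments. Basal and suprabasal layers of the epidermis use different sets of desmogleins, desmocollins and plakophilins, and desmosomes are commonly remodelled when epithelial cells take on mesenchymal traits.

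Some facts of the whole series bear on every value. Median intensity per array ran from 103.3 to 109.8, and across all genes the SE of a log2 difference had a median of 0.245. Ovol1 read 9.79 (log2) in control and 6.09 in Ovol1/2 DKO on average, but 10.27 on the labelled Ovol1 KO pair, which goes against that label, so every direction drawn from those arrays rests on the label. Ovol2 means were 7.67, 8.13 and 7.56 in control, labelled Ovol1 KO and Ovol1/2 DKO. The log2 difference of Ovol2 in Ovol1/2 DKO from control was -0.10 (SE 0.45) and did not pass. The loss of Ovol2 in Ovol1/2 DKO thus rests on the label as well. The sources used here do not say whether the Ovol1 and Ovol2 probes fall within the deleted exons. The Ovol1/2 DKO mice are labelled Ovol1-/- as well, and the same Ovol1 probe set read 5.96 and 6.22 there. On the labelled Ovol1 KO pair it read 10.75 and 9.80. Groups given the same Ovol1 genotype thus read differently, and the cause was not tested. The labels were kept as given and are not settled by these readings. Xist, the RNA of X inactivation, was near background on 2 arrays (4.43 for control replicate 1, 4.54 for labelled Ovol1 KO replicate 1), against 10.99 to 11.43 on the other 4 arrays, although all carry a female label. The Y-linked gene Eif2s3y read 13.80 on labelled Ovol1 KO replicate 1, against its female label, and 4.80 to 5.14 on the other 5 arrays, control replicate 1 included. The keratinocyte label was borne out by its defining markers: Krt5 stood between 13.39 and 13.55 and Krt14 between 13.21 and 13.39 on the 6 arrays. Values throughout are log2(intensity + 16), and levels are compared only for the same gene between arrays, since probe sets differ in brightness. All 10 desmosome genes lay above 6.20, the highest array median of the probe sets without a gene name, on every array. The lowest reading was 8.19, for Pkp2 in Ovol1/2 DKO replicate 1.

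**Figure D1:**
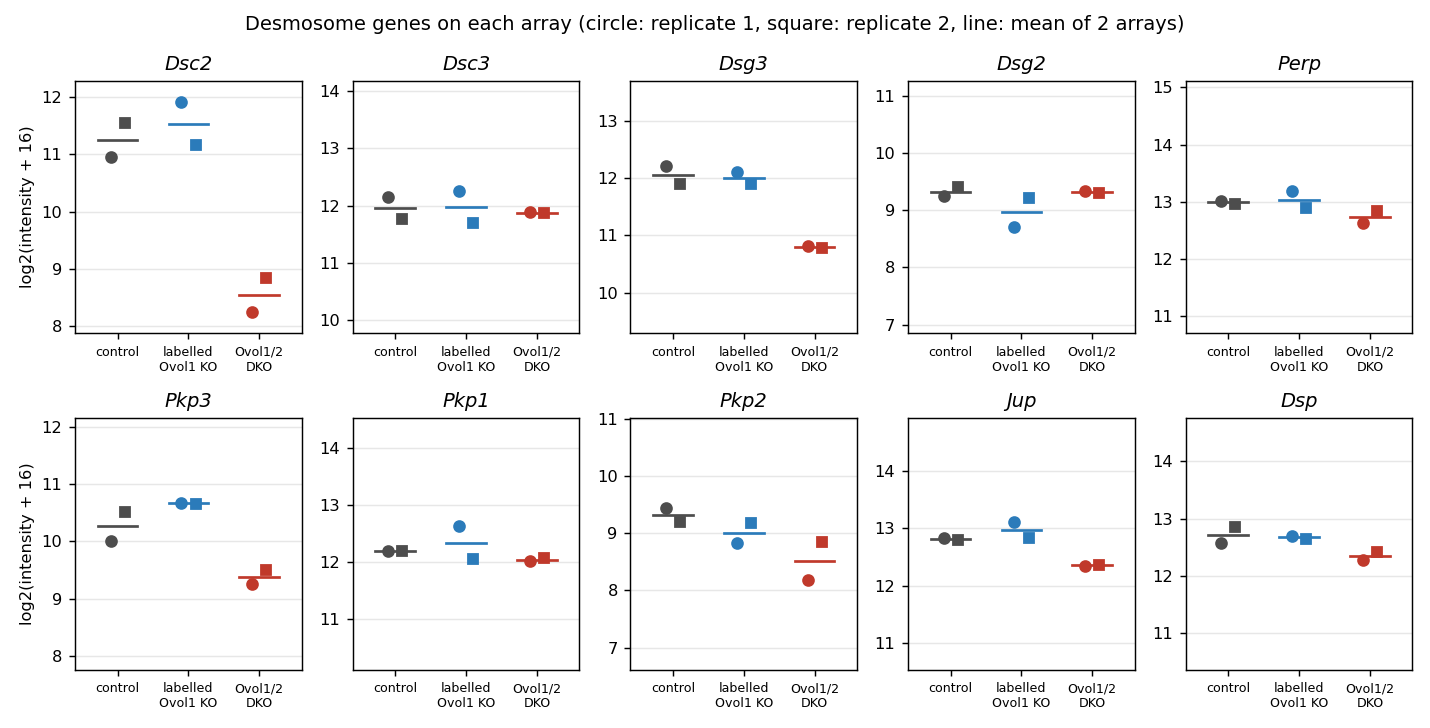
Level of each desmosome gene on each array, as log2(intensity + 16), by group; circles are replicate 1, squares replicate 2 and lines the mean of 2 arrays. Every panel spans the same height, so that the drop of Dsc2 from 11.25 to 8.55 and of Dsg3 from 12.05 to 10.80 can be set by eye against the other genes.

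Of the 10 genes, the cadherins Dsc2 and Dsg3 fell in Ovol1/2 DKO against control, Dsc2 6.51-fold and Dsg3 2.37-fold. The other 8 did not pass the test, and none of the 10 had a higher mean in Ovol1/2 DKO. Against the labelled Ovol1 KO arrays, Dsc2, Dsg3 and the plakophilin Pkp3 fell. Over all genes, 1.40% passed as lower in the first of these comparisons and 1.91% in the second, where passing means a limma adjusted p under 0.05 over 19938 genes. As higher, 0.622% and 1.24% of all genes passed in the same comparisons, and none of the 10 did. Both comparisons use the same Ovol1/2 DKO arrays, so they do not support each other independently. The desmosome genes had a median log2 difference of -0.41 against control and -0.41 against the labelled Ovol1 KO arrays, beside 0.03 and 0.02 for all genes.

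Among the desmocollins, Dsc2 is the widely expressed form that simple epithelia also use, and it moved most of the 10 genes. It read 10.96 and 11.54 in control, 11.92 and 11.16 on the labelled Ovol1 KO pair, and 8.25 and 8.85 in Ovol1/2 DKO. Both Ovol1/2 DKO arrays lay below all 4 others, with a gap of 2.11 to the nearest control array. As intensity on the linear scale, this was 1974.1 and 2961.8 in control against 287.5 and 445.1 in Ovol1/2 DKO. The log2 difference from control was -2.70 (SE 0.36, 95% interval -3.56 to -1.85, n = 2 per group, limma adjusted p = 0.0197). Against the labelled Ovol1 KO arrays it was -2.99 (SE 0.36, limma adjusted p = 0.0109). The direction held in all 18 alternative settings of each comparison, but the call against control was lost without control replicate 2 (limma adjusted p = 0.0841), without Ovol1/2 DKO replicate 1 (0.101) or without Ovol1/2 DKO replicate 2 (0.0661). The call against the labelled Ovol1 KO arrays was lost without their replicate 1 or without Ovol1/2 DKO replicate 1.

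Dsc3, the desmocollin of the basal epidermis, read 12.15 and 11.76 in control, 12.26 and 11.69 on the labelled Ovol1 KO pair, and 11.89 and 11.87 in Ovol1/2 DKO. The Ovol1/2 DKO arrays lay inside the spread of the control arrays. The log2 difference from control was -0.08 (SE 0.26, 95% interval -0.71 to 0.55, limma adjusted p = 1.0), an interval that does not resolve a change of that size in either direction.

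Among the desmogleins, Dsg3, the desmoglein of the lower epidermis and an antigen of pemphigus vulgaris, read 12.20 and 11.89 in control and 12.10 and 11.89 on the labelled Ovol1 KO pair. In Ovol1/2 DKO it read 10.81 and 10.79. Both Ovol1/2 DKO arrays lay below all 4 others, which in turn stayed within 0.31 of each other. The log2 difference was -1.25 from control (SE 0.21, 95% interval -1.75 to -0.74, n = 2 per group, limma adjusted p = 0.0402). From the labelled Ovol1 KO arrays it was -1.20 (SE 0.21, limma adjusted p = 0.0351). The size of the difference from control stayed between -1.40 and -1.09 over the 18 settings, while the adjusted p lay near the threshold. The call against control passed in 8 of the 18. It was lost when fitted on the 2 groups alone, with an offset of 1 or 64, and with all probe sets tested. That call was lost without any 1 of the 6 arrays, at a limma adjusted p of 0.0522 without either array labelled Ovol1 KO, 0.131 and 0.120 without control replicates 1 and 2, and 0.231 and 0.289 without Ovol1/2 DKO replicates 1 and 2. The call against the labelled Ovol1 KO arrays was lost without either of those arrays (0.129 and 0.0649 for replicates 1 and 2) and without either Ovol1/2 DKO array (0.208 and 0.238).

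Dsg2, the desmoglein shared with simple epithelia and heart, read 9.24 and 9.41 in control, 8.70 and 9.22 on the labelled Ovol1 KO pair, and 9.33 and 9.31 in Ovol1/2 DKO. The Ovol1/2 DKO arrays lay between the control arrays, at a log2 difference of -0.00 (SE 0.24, 95% interval -0.57 to 0.56, limma adjusted p = 1.0). They lay just above both arrays labelled Ovol1 KO (0.36, SE 0.24, limma adjusted p = 0.584), the only desmosome gene placed that way, beside 24.6% of all genes.

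Perp is a membrane protein of desmosomes and a known target of p63 in stratified epithelia. It read 13.02 and 12.96 in control, 13.18 and 12.89 on the labelled Ovol1 KO pair, and 12.64 and 12.84 in Ovol1/2 DKO. Both Ovol1/2 DKO arrays were the lowest of the 6, but the log2 difference from control of -0.25 did not pass (SE 0.21, 95% interval -0.74 to 0.24, limma adjusted p = 0.942).

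The plakophilins are armadillo-repeat proteins that bind cadherin tails and gather desmoplakin at the plaque. Pkp3, found through most epidermal layers, read 10.01 and 10.52 in control, 10.67 and 10.66 on the labelled Ovol1 KO pair, and 9.25 and 9.50 in Ovol1/2 DKO. Both Ovol1/2 DKO arrays were the lowest of the 6. Pkp3 fell against the labelled Ovol1 KO arrays (log2 difference -1.29, SE 0.24, 95% interval -1.86 to -0.72, limma adjusted p = 0.0418). Against control the difference was -0.89 (SE 0.24, 95% interval -1.46 to -0.32) and did not pass (limma adjusted p = 0.177). The call was lost without either array labelled Ovol1 KO (limma adjusted p = 0.143 and 0.114 for replicates 1 and 2) and without either Ovol1/2 DKO array (0.270 and 0.180). It passed in 9 of the 18 settings, and was also lost with quantile normalization (0.0675), an offset of 1 (0.0576) or 64 (0.0646) in place of 16, array weights (0.0513) and all probe sets tested (0.114). Without the 2 arrays that lacked Xist signal, the difference of Pkp3 from control was -1.14. That setting leaves 1 control array, so no call is drawn from it.

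Pkp2, the plakophilin of simple epithelia and heart, read 9.44 and 9.19 in control, 8.83 and 9.17 on the labelled Ovol1 KO pair, and 8.19 and 8.85 in Ovol1/2 DKO. The Ovol1/2 DKO arrays lay below both control arrays but overlapped those labelled Ovol1 KO, and they were 0.66 apart from each other. The log2 difference from control was -0.80 (SE 0.28, 95% interval -1.47 to -0.13) and did not pass (limma adjusted p = 0.342). Pkp1, most prominent in suprabasal layers, read 12.19 and 12.20 in control, 12.63 and 12.05 on the labelled Ovol1 KO pair, and 12.01 and 12.07 in Ovol1/2 DKO. The groups lay close together, with a log2 difference from control of -0.15 (SE 0.24, 95% interval -0.73 to 0.42, limma adjusted p = 1.0).

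Jup encodes plakoglobin, which serves desmosomes and, in part, adherens junctions. It read 12.84 and 12.79 in control, 13.11 and 12.84 on the labelled Ovol1 KO pair, and 12.35 and 12.36 in Ovol1/2 DKO. The Ovol1/2 DKO arrays were nearly equal and lay below all 4 others. The log2 difference was -0.46 from control (SE 0.20, 95% interval -0.93 to 0.01, limma adjusted p = 0.509) and -0.62 from the labelled Ovol1 KO arrays (SE 0.20, limma adjusted p = 0.206), neither passing. With an intensity trend in the variance, the second of these passed (limma adjusted p = 0.0432). Dsp read 12.58 and 12.85 in control, 12.70 and 12.65 on the labelled Ovol1 KO pair, and 12.27 and 12.42 in Ovol1/2 DKO. Again both Ovol1/2 DKO arrays were the lowest, at a log2 difference from control of -0.37 (SE 0.20, 95% interval -0.85 to 0.11, limma adjusted p = 0.702).

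**Figure D2:**
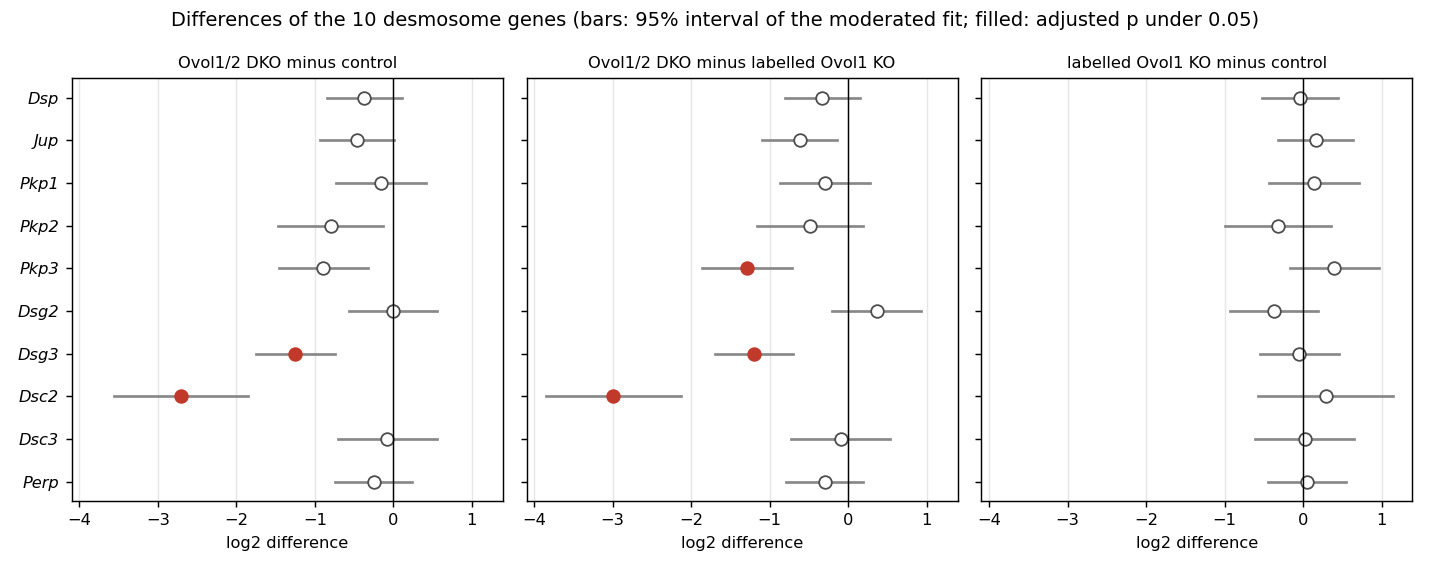
Log2 difference of each desmosome gene in the 3 comparisons, with bars for the 95% interval of the moderated limma fit (2 arrays per group) and filled points where the adjusted p was under 0.05. Dsc2 and Dsg3 are filled in both Ovol1/2 DKO comparisons, Pkp3 in that against the labelled Ovol1 KO arrays, and no gene in the third.

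In 8 of 10 desmosome genes both Ovol1/2 DKO arrays lay below both control arrays, beside 18.1% of all genes, the exceptions being Dsg2 and Dsc3. In 6 of them, Dsp, Jup, Pkp3, Dsg3, Dsc2 and Perp, the Ovol1/2 DKO arrays were below all 4 other arrays, beside 12.0% of all genes. At an unadjusted limma p under 0.05, 4 of 10 were lower in Ovol1/2 DKO than in control, Pkp2, Pkp3, Dsg3 and Dsc2, beside 5.32% of all genes. The mean over the 10 genes was 11.46 and 11.51 in control, 11.61 and 11.42 on the labelled Ovol1 KO pair, and 10.70 and 10.88 in Ovol1/2 DKO.

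Between the labelled Ovol1 KO arrays and control, none of the 10 genes passed, and 0% of all genes did in limma. None had an unadjusted limma p under 0.05, beside 0.767% of all genes. Pkp3 had both arrays labelled Ovol1 KO above both control arrays, beside 8.82% of all genes, at a log2 difference of 0.40 (SE 0.24, 95% interval -0.17 to 0.97). Pkp2 and Dsg2 had both below, beside 10.3% of all genes, at -0.31 (SE 0.28) and -0.37 (SE 0.24). The intervals of all 10 differences included 0. The widest, for Dsc2, ran from -0.57 to 1.14, so a change of that size in either direction was not resolved. The median difference of the 10 genes was 0.04, beside -0.00 for all genes.

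The desmosome genes varied within groups to different degrees. The within-group SD was 0.12 for Jup, 0.13 for Dsp, 0.15 for Perp and 0.16 for Dsg3, and 0.46 for Dsc2, beside a median of 0.24 over all genes. Replicate 1 labelled Ovol1 KO held the highest reading of Dsc2, Dsc3, Perp, Jup, Pkp1 and Pkp3, and the lowest of Dsg2. The share of all genes with their highest reading there was not counted. The mean of 14 differentiation markers, such as the envelope genes Tgm1 and Sprr1b, was 11.06 on that array and 9.27 on replicate 2 of that group. In control the same mean was 9.31 and 10.34, and in Ovol1/2 DKO 7.10 and 7.71. Dsc2, Pkp1 and Pkp3 were likewise higher on control replicate 2 than on control replicate 1, while Dsc3, Jup and Perp were lower. All 14 differentiation markers had a lower mean in Ovol1/2 DKO than in control. Of them, Tgm1 and Sprr1b passed, beside 1.40% of all genes. Against the labelled Ovol1 KO arrays 5 of the 14 passed as lower, beside 1.91% of all genes. The part of differentiation in the Dsc2 values was not tested. The 2 Ovol1/2 DKO arrays differed by 0.03 in Dsg3 and by 0.02 in Dsc3, less than the arrays of either other group.

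Among 9 other measured genes tied to desmosomes, the envoplakin gene Evpl fell in Ovol1/2 DKO, from 8.79 and 9.10 in control to 6.75 and 6.63. Over all genes, 1.40% passed as lower against control. Envoplakin and periplakin are plakins that join desmosomes to the cornified envelope. The log2 difference of Evpl was -2.25 (SE 0.20, limma adjusted p = 0.00755), and its partner Ppl, at -2.16 (SE 0.46), did not pass (limma adjusted p = 0.0857). Against the labelled Ovol1 KO arrays, 3 of the 9 fell, beside 1.91% of all genes. These were Evpl (-2.49, SE 0.20), Ppl (-2.61, SE 0.46, limma adjusted p = 0.0357) and Cdsn (-5.25, SE 0.94, limma adjusted p = 0.0375). Cdsn encodes corneodesmosin, which is added to desmosomes of the cornified layer. It varied widely within groups, at 9.99 and 11.79 in control, 12.62 and 10.88 on the labelled Ovol1 KO pair, and 5.37 and 7.63 in Ovol1/2 DKO. The reading of 5.37 lay below the background mark of 6.20, so the size of the fall of Cdsn is not fully resolved. Without Ovol1/2 DKO replicate 2 the call of Evpl against control was lost, and those of Ppl and Cdsn against the labelled Ovol1 KO arrays were lost without either Ovol1/2 DKO array or without labelled Ovol1 KO replicate 1, that of Cdsn also without replicate 2. Those calls of Ppl and Cdsn were also lost with an offset of 64 or with all probe sets tested. That of Cdsn was lost with quantile normalization or array weights too. None of the 9 rose, beside 0.622% of all genes against control and 1.24% against the labelled Ovol1 KO arrays. Their median difference from control was -0.63, beside 0.03 for all genes.

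The remaining cadherin and plakophilin relatives with a probe set of their own did not pass. The desmocollin gene Dsc1 had no probe set annotated to it, and Dsg1a had none of its own, so neither was tested. Dsg1b, a desmoglein of the upper layers, read 6.52 and 7.98 in control, 9.46 and 6.94 on the labelled Ovol1 KO pair, and 4.81 and 4.70 in Ovol1/2 DKO, the last near background. Its log2 difference from control was -2.49 (SE 0.82, limma adjusted p = 0.290). A further probe set, annotated to Dsg1a, Dsg1b and Dsg1c together, read 7.76 and 8.81 in control, 10.71 and 6.57 on the labelled Ovol1 KO pair, and 4.78 and 5.14 in Ovol1/2 DKO. These near-identical genes may share signal. Dsg1c and the hair desmoglein Dsg4 stayed at or below 5.43 on all 6 arrays, near background. Pkp4, a relative of the plakophilins also found at other junctions, differed by 0.17 (SE 0.22), and Kazn by -0.63 (SE 0.21, limma adjusted p = 0.283).

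**Figure D3:**
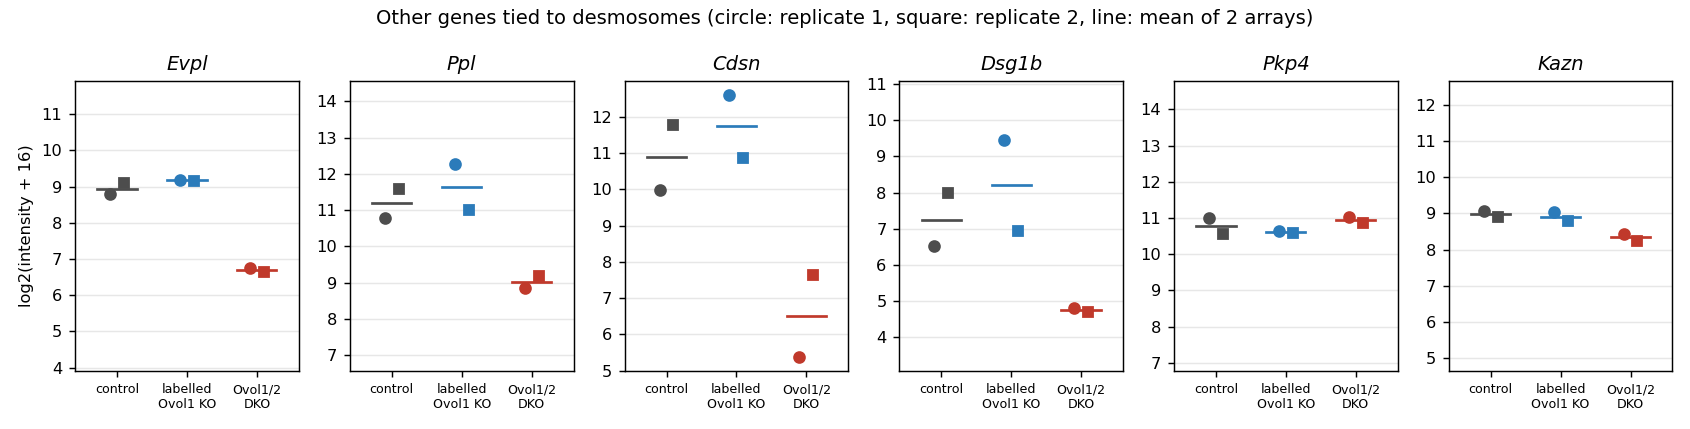
Level of 6 further genes tied to desmosomes on each array, as log2(intensity + 16), by group; circles are replicate 1, squares replicate 2 and lines the mean of 2 arrays. Evpl kept its groups tight and dropped to 6.75 and 6.63 in Ovol1/2 DKO. Cdsn spread widely within all 3 groups, and Dsg1b most between the labelled Ovol1 KO arrays.

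Keratins and vimentin are the filaments that desmosomes or other junctions anchor. Of 15 intermediate filament genes, 5 fell in Ovol1/2 DKO against control and none rose, beside 1.40% of all genes lower and 0.622% higher. These were Krt6b (-3.82, SE 0.64), Krt16 (-3.63, SE 0.55), Krt19 (-2.86, SE 0.51), Krt7 (-2.54, SE 0.37) and Krt8 (-1.79, SE 0.28), with limma adjusted p values from 0.0259 to 0.0477. Krt6b and Krt16 are stress keratins, and Krt7, Krt8 and Krt19 are keratins of simple epithelia. Krt19 read 5.45 in Ovol1/2 DKO replicate 1, below the background mark of 6.20, so the size of its fall is not fully resolved. The main basal pair that desmoplakin binds in these cells differed little, Krt5 by 0.07 (SE 0.19) and Krt14 by 0.07 (SE 0.19), neither passing. Each of the 5 keratin calls was lost without control replicate 2 or without Ovol1/2 DKO replicate 1, those of Krt6b, Krt16 and Krt8 also without Ovol1/2 DKO replicate 2, those of Krt16 and Krt19 without control replicate 1, and those of Krt6b and Krt19 without either labelled Ovol1 KO array. All 5 were lost with an offset of 64 or with all probe sets tested, Krt6b, Krt8 and Krt19 with quantile normalization, Krt6b and Krt19 when fitted on the 2 groups alone, and Krt19 with an offset of 1. Their differences stayed at or below -1.57 in all 18 settings. The difference of Krt5 was -0.00 without control replicate 2, so its direction was not settled. Against the labelled Ovol1 KO arrays the same 5 keratins fell and Vim rose (4.12, SE 0.54, limma adjusted p = 0.0146). Over all genes, 1.91% passed there as lower and 1.24% as higher. Vim read 11.13 and 9.92 in control, 8.39 and 9.82 on the labelled Ovol1 KO pair, and 13.20 and 13.24 in Ovol1/2 DKO. Its difference from control was 2.70 (SE 0.54) and did not pass (limma adjusted p = 0.0730), and the labelled Ovol1 KO arrays lay below both control arrays, at -1.42 (SE 0.54, limma adjusted p = 0.999). Without Ovol1/2 DKO replicate 1 neither Vim nor any of the 5 keratins passed against the labelled Ovol1 KO arrays, and Vim was also lost there without Ovol1/2 DKO replicate 2 or labelled Ovol1 KO replicate 1, at a difference between 3.40 and 4.83 over the 18 settings.

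Adherens junctions, the neighbouring adhesive junctions built on classical cadherins, were read from 12 genes. Against control 3 fell and 1 rose, beside 1.40% and 0.622% of all genes. The genes that fell were Cdh1, encoding E-cadherin (log2 difference -1.57, SE 0.24, limma adjusted p = 0.0292), the nectin gene Nectin4 (-3.66, SE 0.45) and Afdn, whose product afadin binds nectins (-1.5, SE 0.20). Nectin4 read 6.16 in Ovol1/2 DKO replicate 1, just below the background mark of 6.20, so the size of its fall is not fully resolved. The catenin-like gene Ctnnal1 rose (1.66, SE 0.29). Nectin2 fell as well against the labelled Ovol1 KO arrays (-1.32, SE 0.21, limma adjusted p = 0.0243), beside 1.91% of all genes. The calls of Cdh1 and Afdn against control were lost without control replicate 2 or without either Ovol1/2 DKO array, that of Cdh1 also without control replicate 1, that of Nectin4 without Ovol1/2 DKO replicate 1, and that of Ctnnal1 without any array but control replicate 1. That of Nectin2 was lost without any 1 of the 4 arrays compared. Each of these calls was also lost with all probe sets tested. Those of Cdh1, Nectin4 and Ctnnal1 were lost with an offset of 64, and that of Ctnnal1 when fitted on the 2 groups alone. The difference of Cdh1 from control stayed between -1.77 and -1.36 over the 18 settings, that of Afdn between -1.64 and -1.36, that of Nectin4 between -4.21 and -3.11 and that of Ctnnal1 between 1.32 and 2.0. The median of the 12 differences from control was -0.07, beside -0.41 for the 10 desmosome genes; no test of that gap was made.

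Of 20 measured genes known to act on desmosomes or on junction genes, 2 rose and 3 fell against control, beside 0.622% of all genes higher and 1.40% lower. The repressors Zeb1 (4.95, SE 0.21, limma adjusted p = 0.00257) and Zeb2 (2.19, SE 0.28) rose, from control means near background. The epithelial transcription factors Grhl3 (-3.68, SE 0.37, limma adjusted p = 0.00903) and Grhl1 (-3.65, SE 0.56), the latter known for its control of desmosomal cadherins, fell, as did Tgm1 (-5.00, SE 0.41). The Ovol1/2 DKO mean of Grhl1 was 6.13, below the background mark of 6.20, so the size of its fall is not resolved below that mark. Against the labelled Ovol1 KO arrays the same 5 changed in the same directions, and Trp63, the p63 gene, rose (1.1, SE 0.21, limma adjusted p = 0.0464). As shares of all genes, 1.24% passed there as higher and 1.91% as lower. Zeb1, Grhl3 and Tgm1 passed in all 18 settings of both comparisons. The call of Zeb2 against control was lost without either Ovol1/2 DKO array. That of Grhl1 was lost without control replicate 2 or either Ovol1/2 DKO array. Both were also lost with all probe sets tested, and that of Grhl1 with an offset of 64. The call of Trp63 was lost without any 1 of the 6 arrays, at differences from 0.956 to 1.24 over the 18 settings.

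Since Zeb factors bind the E-box CAGGTG and Grainyhead-like factors the palindrome AACCGGTT, both strands of the promoter windows that RefSeq (GRCm38.p6) gave for the desmosome genes were searched for these letters. A window ran from 250 bases before to 50 after a gene's start, and windows for 2 of the 10 genes, Dsp and Jup, were matched. The Dsp window held CAGGTG, from base 4 to base 9 after the start, as do 20.2% of 32851 such windows of all genes with either strand counted. The Jup window did not hold it, and neither window held AACCGGTT, which 0.146% of all windows hold. The stretch of 30 bases around the Dsp match lies at chr13:38151285-38151314 on the plus strand, shown 5′ to 3′ with the E-box in capitals:
Dsp: gaagaagccgacCAGGTGtggcctgggcgc
A match is a description of the letters, and Dsp itself did not pass in either Ovol1/2 DKO comparison.

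Markers of other cell types were also followed, since fewer cells of a type and less RNA per cell cannot be told apart in bulk RNA. Of 9 keratinocyte markers none passed against control and all 9 had a higher mean in Ovol1/2 DKO, with a summed mean of 11.94 and 12.09 there, 11.61 and 11.50 in control, and 11.35 and 11.45 on the labelled Ovol1 KO pair. Of 11 fibroblast markers Thy1 rose (1.67, SE 0.22), beside 0.622% of all genes. Their mean was 6.62 and 7.46 in control, 6.74 and 7.47 on the labelled Ovol1 KO pair, and 7.12 and 7.74 in Ovol1/2 DKO. Lum stayed at or below 5.36 on all 6 arrays, while Postn read 5.18 and 5.65 in control, 5.04 and 6.15 on the labelled Ovol1 KO pair, and 6.62 and 8.65 in Ovol1/2 DKO. Both Ovol1/2 DKO arrays were the highest for Postn, at a log2 difference from control of 2.22 that did not pass (SE 0.67, limma adjusted p = 0.236). Of 7 simple epithelial and Merkel cell markers Krt8 and Krt7 fell, beside 1.40% of all genes. The list mean was 8.66 and 8.90 in control, 8.55 and 9.0 on the labelled Ovol1 KO pair, and 7.77 and 8.07 in Ovol1/2 DKO. Krt20 stayed at or below 5.88 on all 6 arrays. No melanocyte, endothelial, leukocyte or muscle marker passed against control, with list means between 5.86 and 7.76 on all 6 arrays. Of 9 melanocyte markers, 4 had both Ovol1/2 DKO arrays below both control arrays, beside 18.1% of all genes. Tyrp1 (-1.74, SE 0.49, limma adjusted p = 0.199) and Pmel (-1.11, SE 0.40, 0.367) were among them. Likewise 4 of the 9 had both arrays labelled Ovol1 KO below both control arrays, beside 10.3% of all genes. Among 7 endothelial markers, Kdr differed from control by -1.15 (SE 0.22, limma adjusted p = 0.0598). Pecam1 rose against the labelled Ovol1 KO arrays (1.28, SE 0.19, limma adjusted p = 0.0204), beside 1.24% of all genes. It did not pass against control (0.84, limma adjusted p = 0.100). The part of these cell types in the desmosome values was not tested.

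By closeness of profile, the genes most like Dsc2 over the 6 arrays were Gm14137 (root mean square difference 0.089 on the log2 scale), the receptor gene Erbb3 (0.168) and the transcription factor gene Casz1 (0.184). Those most like Dsg3 were Taf13 (0.072), the splicing regulator Esrp1 (0.080) and Dock11 (0.084). Each gene's own mean was subtracted first, and 9968 genes with a mean at or above the median were searched. The points share arrays and normalization, so this is a description. Erbb3, for example, read 10.43 and 10.95 in control, 11.14 and 10.79 on the labelled Ovol1 KO pair, and 7.69 and 7.97 in Ovol1/2 DKO. Esrp1 read 11.59 and 11.24, 11.67 and 11.23, and 10.30 and 10.21 in the same order.

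**Figure D4:**
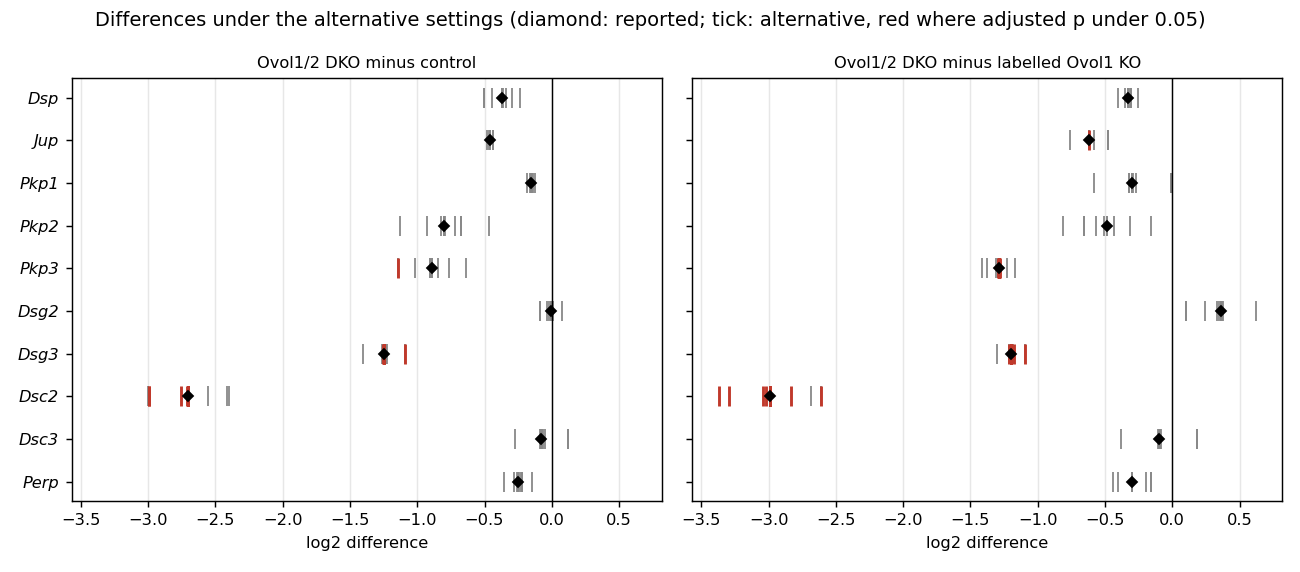
Log2 difference of each desmosome gene as reported (diamonds) and under 18 alternative settings (ticks, red where the limma adjusted p was under 0.05), for Ovol1/2 DKO against control (left) and against the labelled Ovol1 KO arrays (right). Dsc2 stays between -3.00 and -2.40 on the left, and only Dsg2 and Dsc3 cross 0 there.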

How the data were processed

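The authors deposited 1 linear intensity per probe set and array. The submitters' processing notes name Expression Console 1.1.1 and PLIER 2.0; how background was corrected and arrays were normalized is not given in the sources used here. Of 35556 probe sets, 21789 had 1 gene symbol, 1621 several and 12146 none in the platform annotation. Symbols were updated by Entrez identifier (GRCm38.p6, names alone; 91 without a match), those with several symbols were left out, and the brightest probe set stood for a gene, leaving 19938 genes. Values were taken as log2(intensity + 16), which understates changes of dim genes. One limma fit (3.58.1 in R 4.3.3, lmFit and eBayes, 3 residual and 3.68 prior degrees of freedom) over all 6 arrays gave the 3 comparisons, with Benjamini-Hochberg adjustment over all genes; an adjusted p under 0.05 passed. Intervals are 95% intervals of that fit and share its pooled spread. The fit was tested on simulated data. The desmosome genes, the 13 gene lists and the alternatives were chosen with earlier results of these data known. Named were the 10 genes, every passing gene of the lists on other desmosome, filament, regulator and adherens junction genes, the Dsg and Pkp relatives, Krt5, Krt14 and Cdh1, and the 3 nearest profiles of each gene that passed against control. Ppl, Cdsn and Kazn against control, Vim against control, Lum, Postn, Krt20, Tyrp1, Pmel, Kdr, Pecam1, Xist and Eif2s3y were chosen after their values were seen.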

Additional observations from a re-analysis of the deposited data

How the results depend on the processing

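The comparisons were recomputed under 18 alternatives. Dsc2 and Dsg3 kept their direction in all of them in both Ovol1/2 DKO comparisons. Of the 10 desmosome genes, 2 passed against control. Leaving out 1 array at a time gave 0 to 1. The count was 1 when fitted on the 2 groups alone or with an offset of 1 in place of 16, and 0 with an offset of 64 or with all probe sets tested. In the comparison with the labelled Ovol1 KO arrays 3 passed, with 0 to 3 when 1 array was left out, 1 with an offset of 1 or with all probe sets, 2 with quantile normalization, an offset of 64 or array weights, where Pkp3 was lost, and 4 with an intensity trend, where Jup was added. The causes were not tested. A replicate block left the counts at 2 and 3 and changed no call of the 10 genes, while over all genes it raised the calls from 403 to 597 against control and from 628 to 1022 against the labelled Ovol1 KO arrays. Deviations of same-numbered arrays correlated at 0.261, 0.490 and 0.194 between groups, but with 2 numbers and no label tying them to a litter or day, whether the numbers pair the arrays was not settled. Over the 18 alternatives the number passing against control ran from 0 to 8 of the 15 filament genes (5 as reported), 0 to 4 of the 9 other desmosome genes (1), 3 to 7 of the 20 regulators (5) and 0 to 6 of the 12 adherens junction genes (4). None of the 10 passed between the labelled Ovol1 KO arrays and control under any alternative.

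The median of the 10 differences between the labelled Ovol1 KO arrays and control, 0.04, ranged from -0.10 to 0.25 with 1 array left out. It was -0.066 without both arrays that lacked Xist signal. Without those 2 arrays, uncalled differences changed sign: Dsc3 in Ovol1/2 DKO to 0.12 against control and 0.19 against the labelled Ovol1 KO arrays, and between the labelled Ovol1 KO arrays and control Pkp1 to -0.15, Dsg3 to 0.0024, Dsc2 to -0.38, Dsc3 to -0.067 and Perp to -0.064. With 1 array left out, differences of Ovol1/2 DKO from control ranged from -0.087 to 0.079 for Dsg2 and from -0.27 to 0.12 for Dsc3, and Dsc3 from -0.38 to 0.19 against the labelled Ovol1 KO arrays. Those between the labelled Ovol1 KO arrays and control ranged from -0.17 to 0.095 for Dsp, -0.14 to 0.43 for Pkp1, -0.21 to 0.11 for Dsg3, -0.090 to 0.67 for Dsc2, -0.26 to 0.30 for Dsc3 and -0.093 to 0.19 for Perp. A lone array left in a group was assumed to vary like the others. Each gene had 1 probe set of its own, so the planned use of further probe sets was not run.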
